A study of Oryza sativa Japonica Group with 4 samples.

Results

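The circadian clock genes of rice (Oryza sativa, japonica subspecies) described here are 10 genes chosen by locus identifier: OsLHY, also called OsCCA1, the pseudo-response regulator genes OsPRR1, OsPRR37, OsPRR73, OsPRR59 and OsPRR95, then OsGI, OsELF3-1, OsELF3-2 and OsLUX. They are 10 of the 28491 genes listed in at least 1 library, and each of them was listed in all 4 libraries. RNA sequencing compared seedlings labelled modd mutant (titled modd2, from the POSTECH mutant collection) with seedlings of DongJin, the japonica cultivar used as wild type, with 2 libraries per genotype. All plants were unstressed, were grown in soil under natural summer light of 14 h with 10 h of dark, and had their above-ground parts taken at the 4-leaf stage. The sources used here do not give the hour of harvest, the kind or site of the mutation, or the number of plants per library. As nothing shows that the 2 libraries of a genotype are separate plants, a p-value here reflects the spread between libraries, which may be technical.

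The plant clock is a set of transcription factors that repress one another in turn through the day. LHY, a MYB factor, peaks around dawn. The pseudo-response regulators follow one after another from morning to dusk, bind the LHY promoter in Arabidopsis and repress it. In Arabidopsis, ELF3 and LUX join ELF4 in the evening complex, which represses genes at night, and GI stabilises an F-box photoreceptor that marks the homologue of PRR1 for breakdown. In rice the clock sets heading date through photoperiod, and OsPRR37, OsGI and OsELF3-1 are known heading date genes. From this textbook order, and not from these data, OsLHY, OsPRR73 and OsPRR37 are called morning genes below, OsPRR95 and OsPRR59 midday to afternoon genes, and OsGI, OsPRR1 and OsLUX evening genes, while the 2 ELF3 genes are taken as weakly cycling.

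The libraries held from 5334814 to 5393972 expected reads (RSEM's estimate of reads per gene). MODD (LOC_Os03g11550), the gene named by the label, was at 36.91 and 46.61 FPKM (fragments scaled by transcript length and by library size) in the modd-labelled libraries, against 20.95 and 21.32 FPKM in DongJin. It was called higher, with a log2 fold change of 0.93 ± 0.146 (SE, with an edgeR adjusted p of 0.0272), against the label if the mutation lowers the transcript, so these are called the modd-labelled libraries below and directions are given for the labels. All 4 leaf markers were present, with a summed level of 2979.9 and 3473.4 FPKM in the modd-labelled libraries and 3640.7 and 4417.4 FPKM in DongJin. Of 5 root markers, 3 had no row in any library, counted as 0 (OsYSL15, LSI2 and OsNRT2.1), and LSI1 and OsHKT2;1 summed to 19.1 and 16.9 FPKM in the modd-labelled libraries and 15.4 and 11.7 FPKM in DongJin. The meristem marker OSH1 was at most 0.66 FPKM, and the panicle marker OsMADS14 was at 10.96 to 12.79 FPKM. The summed leaf markers were lower and the summed root markers higher in both modd-labelled libraries. The leaf markers RBCS, LHCB4 and LHCB5 were each lower in both, while PSBS1 overlapped between the groups. Groups that did not overlap in FPKM were found for 49.7% of all tested genes. The leaf marker sums of the 2 DongJin libraries lay further apart than those of DongJin replicate 1 and modd-labelled replicate 2. No leaf marker and no tested root marker was called, with smallest edgeR adjusted p of 0.186 and 0.2. The part of these marker differences in the clock gene values was not tested. In tissue libraries of this kind, fewer cells of a type and less RNA per cell cannot be told apart.

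No clock gene was called different between the genotypes at an adjusted p under 0.05 (edgeR, quasi-likelihood, Benjamini-Hochberg adjustment over the 19365 genes tested). Over all those genes, 162 were called, 0.837%. DESeq2 also called 0 of the members, and 2.85% of the genes it gave an adjusted p. The limma fits on FPKM called 0 genes in all, so they say nothing about the members. Of the 10 members 9 had enough reads to be tested, and OsLUX did not. At an unadjusted edgeR p under 0.05 stood 1 of the 9, OsELF3-2, or 11.1%, against 16.8% of all tested genes. The log2 fold changes of the 9 ran from -0.40 to 0.21, 4 above 0 and 5 below, with a median of -0.06, against a median of 0.00 over all tested genes. Their median size regardless of sign was 0.11, against 0.20 over all tested genes and 0.15 over the 5843 genes with at least the abundance of the least abundant tested clock gene. The 95% intervals of the 9 fold changes spanned 0.64 to 1.39-fold, and 8 of the 9 held a log2 value of 0. A gene can still differ between the genotypes within its interval.

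**Figure D1:**
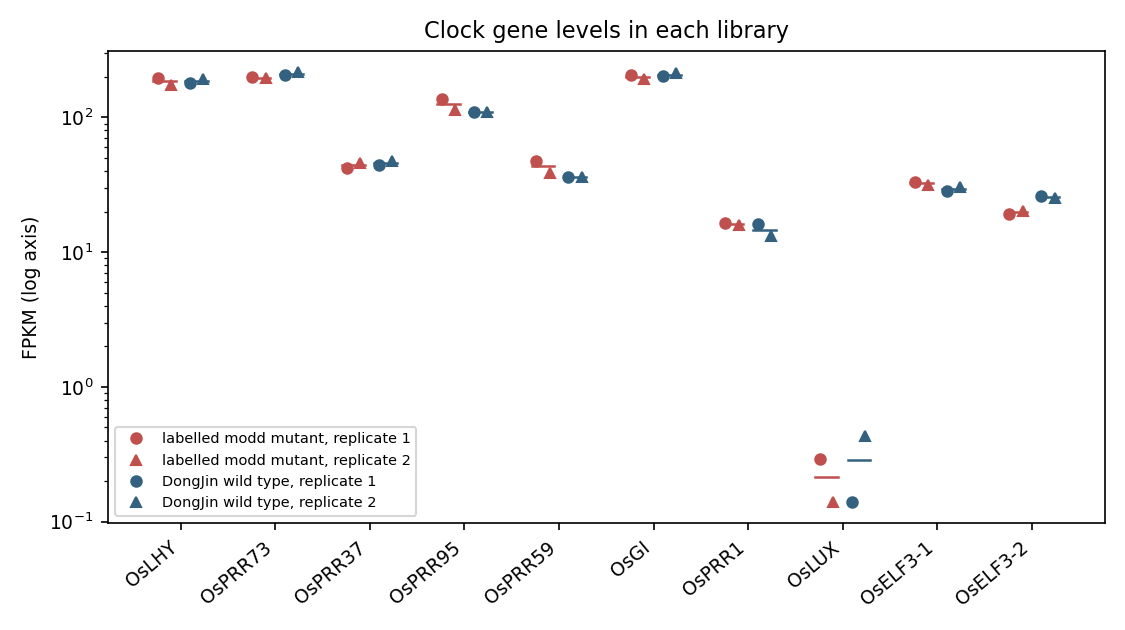
FPKM (log axis) of the 10 clock genes in each library, with circles for replicate 1, triangles for replicate 2 and short lines for the group means. OsPRR73, OsGI and OsLHY sit between 174.4 and 216.1 FPKM in all 4 libraries and OsLUX at or below 0.43 FPKM, and the genotypes lie close together for most genes.

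The clock genes spanned a wide range of levels, and the order was nearly the same in every library. OsPRR73, OsGI and OsLHY stood highest, with means over the 4 libraries of 204.3, 203.4 and 185.5 FPKM. In each library these 3 were above at least 98.4% of listed genes. The ranges of OsPRR73 and OsGI overlapped, as did those of OsGI and OsLHY, although OsGI was above OsLHY in all 4 libraries. OsPRR95 came next at 117.4 FPKM, apart from its neighbours on both sides. OsPRR37 and OsPRR59 followed with overlapping ranges, at 45 and 39.6 FPKM. OsELF3-1 (30.9 FPKM), OsELF3-2 (22.7 FPKM), OsPRR1 (15.4 FPKM) and OsLUX (0.25 FPKM) completed the order, with no overlap of ranges from OsPRR59 down.

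Read against the textbook order, the RNA was rich in transcripts of the morning genes OsLHY and OsPRR73. Of the evening genes, OsPRR1 was far lower than these and OsLUX was barely detected. OsPRR1 was still above 65.4 to 69.9% of listed genes, depending on the library. OsGI, classed as an evening gene, was as high as the 2 morning genes, and the midday gene OsPRR95 was above the morning gene OsPRR37. The hour of harvest is not given, nor whether it was the same for all 4 libraries, and genes differ in the level they reach at their peak. The levels therefore do not give an hour, and with no harvest time a difference in phase and a difference in sampling time cannot be told apart.

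OsLHY (LOC_Os08g06110), the dawn-phased MYB repressor, had 3034 and 2735 reads or 194.9 and 174.4 FPKM in the modd-labelled libraries, against 2824 and 3019 reads or 181.0 and 191.6 FPKM in DongJin. The highest and the lowest library both carried the modd mutant label, so the groups overlapped. The log2 fold change was -0.06 ± 0.118 (SE, n = 2 per group, with an edgeR adjusted p of 0.847), with a 95% interval of -0.32 to 0.21. Its sign changed without modd-labelled replicate 2 (0.01) and without DongJin replicate 2 (0.02).

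OsPRR73 (LOC_Os03g17570), a morning pseudo-response regulator, was at 199.8 and 194.9 FPKM in the modd-labelled libraries and at 206.3 and 216.1 FPKM in DongJin. Both modd-labelled libraries were below both DongJin libraries, by a log2 fold change of -0.14 ± 0.118 (SE, with an edgeR adjusted p of 0.582). OsPRR37 (LOC_Os07g49460), which delays heading in long days, was at 42.34 and 45.75 FPKM in the modd-labelled libraries and at 44.12 and 47.62 FPKM in DongJin. Here the groups interleaved, and the log2 fold change was -0.11 ± 0.11 (SE, with an edgeR adjusted p of 0.655). None of the 3 morning genes passed the test. Without DongJin replicate 2 the log2 fold change was -0.08 for OsPRR73 and -0.02 for OsPRR37.

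The midday to afternoon pair stood on the other side of 0. OsPRR95 (LOC_Os09g36220) was at 137.7 and 113.6 FPKM in the modd-labelled libraries and at 108.7 and 109.5 FPKM in DongJin. Modd-labelled replicate 1 was the high library, while replicate 2 lay close to DongJin. The log2 fold change was 0.16 ± 0.118 (SE, with an edgeR adjusted p of 0.532), and 0.03 without that library. OsPRR59 (LOC_Os11g05930) was at 47.44 and 38.87 FPKM in the modd-labelled libraries and at 35.97 and 36.26 FPKM in DongJin. The same library stood highest. The log2 fold change was 0.21 ± 0.116 (SE, with an edgeR adjusted p of 0.391), and 0.08 without modd-labelled replicate 1. In both genes the difference between the modd-labelled libraries, 0.28 for OsPRR95 and 0.29 for OsPRR59 on the log2 scale, was larger than the log2 fold change, while the DongJin libraries differed by 0.01 in each.

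OsGI (LOC_Os01g08700), coding for a large nuclear and cytoplasmic protein that links the clock with flowering, had the most reads of the 10, with 5048 and 4765 in the modd-labelled libraries and 4929 and 5241 in DongJin. This was 207.0 and 192.8 FPKM in the modd-labelled libraries, against 202.0 and 211.7 FPKM in DongJin. The groups overlapped, with a log2 fold change of -0.09 ± 0.122 (SE, with an edgeR adjusted p of 0.753), and -0.02 without DongJin replicate 2. OsPRR1 (LOC_Os02g40510), the rice homologue of Arabidopsis TOC1, was at 16.58 and 15.81 FPKM in the modd-labelled libraries and at 16.05 and 13.11 FPKM in DongJin. DongJin replicate 2 was low and the other 3 libraries were alike. The log2 fold change of 0.11 ± 0.134 (SE, with an edgeR adjusted p of 0.714) became 0.00 without that library.

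OsLUX (LOC_Os01g74020), listed in the reference gene table as OsPCL1 and coding for the DNA-binding member of the evening complex, was barely detected. It had 2 and 1 reads in the modd-labelled libraries and 1 and 3 reads in DongJin, or 0.14 to 0.43 FPKM in the 4 libraries. Summed over the group, 3 reads stood against 4. Scaled by the normalised library sizes, the ratio was 0.733, with an exact 95% counting interval of 0.107 to 4.33, scaled alike. The interval covers counting error only, and a difference within it could not be detected at this depth.

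The ELF3 genes, whose products bridge the evening complex in Arabidopsis, showed the only clock member with an unadjusted p under 0.05. OsELF3-2 (LOC_Os01g38530) was at 19.26 and 20.18 FPKM in the modd-labelled libraries and at 26.22 and 25 FPKM in DongJin, from 287 and 296 reads against 379 and 370. Both modd-labelled libraries were below both DongJin libraries, and the replicates of each genotype differed by 0.07 on the log2 scale. The fold change was 0.759, with a 95% interval of 0.64 to 0.901 and a log2 fold change of -0.40 ± 0.111 (SE, with an edgeR adjusted p of 0.118), so it did not pass. It passed in 1 alternative, without DongJin replicate 1 (log2 fold change -0.41, edgeR adjusted p = 0.041). That fit has a single DongJin library and called 2483 genes, 12.4% of those it tested, so a call there is no sign of a difference particular to OsELF3-2. Over all 13 alternatives its adjusted p ran from 0.041 to 0.504. Of the 9 tested clock genes it had the largest log2 fold change in size.

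OsELF3-1 (LOC_Os06g05060) was at 32.96 and 31.7 FPKM in the modd-labelled libraries and at 28.29 and 30.47 FPKM in DongJin. The groups did not overlap, in the opposite direction to OsELF3-2, and the log2 fold change was 0.09 ± 0.108 (SE, with an edgeR adjusted p of 0.701). It was 0.01 without DongJin replicate 1 and 0.18 without DongJin replicate 2. These 2 were the only clock genes of the 10 whose expected reads held fractions, which means that some of their reads were shared with other genes and split by estimate, so both values are uncertain to that extent. The files do not show which genes shared them. The summed reads of the pair were 792 and 784 in the modd-labelled libraries and 814 and 842 in DongJin. The OsELF3-1 level was 1.71 and 1.57 times that of OsELF3-2 in the modd-labelled libraries, and 1.08 and 1.22 times in DongJin. This ratio was chosen after its values were seen and is given without a test. Its log2 mean was 0.71 ± 0.0874 in the modd-labelled libraries and 0.20 ± 0.124 in DongJin (SD, n = 2 each), a difference of 0.52, and with single libraries left out the difference ran from 0.43 to 0.60.

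**Figure D2:**
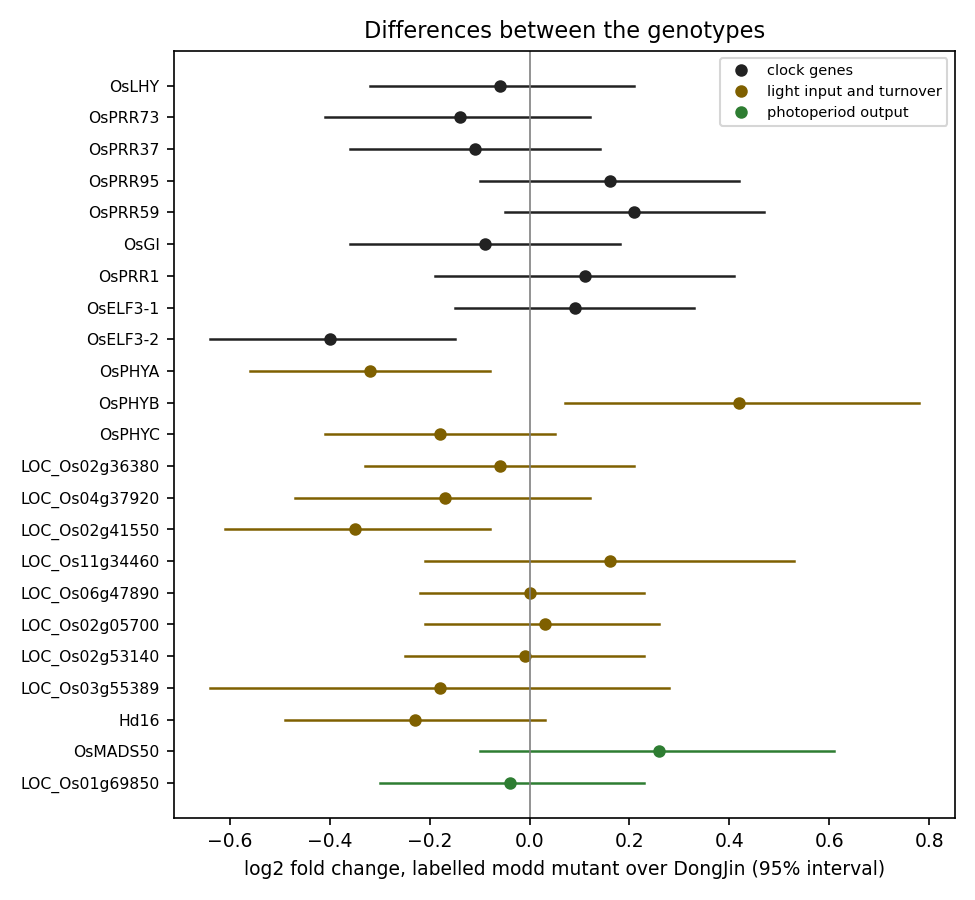
Log2 fold changes of the 9 tested clock genes and of the tested genes of the light input and photoperiod lists, modd-labelled libraries over DongJin, with 95% intervals from the edgeR fit as lines. Genes whose names are not in the reference table are given by identifier. Among the clock genes the interval of OsELF3-2 alone lies wholly to one side of 0, and no gene shown passed the test over all genes.

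The groups did not overlap in FPKM for 5 of the 9 tested clock genes, OsPRR95, OsPRR59 and OsELF3-1 with the modd-labelled libraries higher, and OsPRR73 and OsELF3-2 with them lower. That is 55.6%, near the 49.7% found over all tested genes. The median difference between replicates of the clock genes was 0.07 on the log2 scale in the modd-labelled libraries and 0.14 in DongJin, over all tested genes it was 0.17 and 0.20, and over the 5843 genes of at least like abundance it was 0.11 and 0.14. For the tested members, the highest library exceeded the lowest by a factor of at least 1.1 (OsGI) and at most 1.36 (OsELF3-2).

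Ratios between clock genes of different phase class, taken within a library, do not depend on how libraries are scaled. OsLHY over OsPRR1, dawn over dusk, was 11.8 and 11 in the modd-labelled libraries and 11.3 and 14.6 in DongJin. The groups overlapped, and the mean log2 ratio was 3.51 ± 0.0647 in the modd-labelled libraries and 3.68 ± 0.265 in DongJin (SD, n = 2 each). OsLHY over OsGI was the steadiest of the ratios, at 0.942 and 0.905 in the modd-labelled libraries and 0.896 and 0.905 in DongJin. The mean log2 difference of 0.04 compared with a pooled SD of 0.0298.

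OsPRR73 over OsPRR1 was 12.1 and 12.3 in the modd-labelled libraries and 12.9 and 16.5 in DongJin. Here both modd-labelled libraries were lower, with a mean log2 difference of -0.26 and a pooled SD of 0.18. Without DongJin replicate 2, the library low in OsPRR1, the difference was -0.08. OsPRR95 over OsPRR1 was 8.31 and 7.18 in the modd-labelled libraries and 6.77 and 8.35 in DongJin, with overlapping groups. OsLHY over OsLUX ran from 446 to 1293 over the 4 libraries and rests on 1 to 3 OsLUX reads in each. These 5 ratios were given no p-value.

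**Figure D3:**
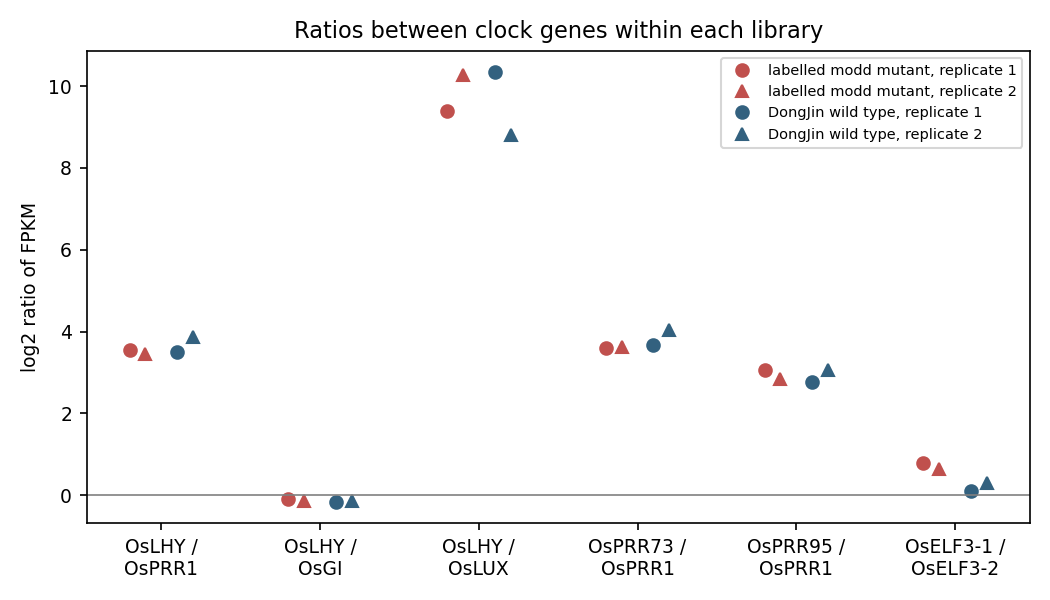
Log2 ratio of FPKM between pairs of clock genes within each library, circles for replicate 1 and triangles for replicate 2. The genotypes overlap in 4 of the 6 ratios and are apart for OsPRR73 over OsPRR1 and OsELF3-1 over OsELF3-2.

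The 5 pseudo-response regulator genes summed to 443.9 and 408.9 FPKM in the modd-labelled libraries and 411.2 and 422.6 FPKM in DongJin. OsPRR73 made up 45 and 47.7% of this sum in the modd-labelled libraries and 50.2 and 51.1% in DongJin. The share of OsPRR95 was 31 and 27.8% in the modd-labelled libraries and 26.4 and 25.9% in DongJin. OsPRR59 held 10.7 and 9.51% in the modd-labelled libraries and 8.75 and 8.58% in DongJin. So both modd-labelled libraries had a smaller share of OsPRR73 and larger shares of the midday to afternoon pair. As shares of 1 sum, these depend on one another, so a larger share of some genes lowers the share of the rest. The shares were not tested, and for OsPRR95 and OsPRR59 alike the gap between the modd-labelled libraries was wider than that from modd-labelled replicate 2 to either DongJin library. OsPRR37 ranged from 9.54 to 11.3% and OsPRR1 from 3.1 to 3.9%.

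**Figure D4:**
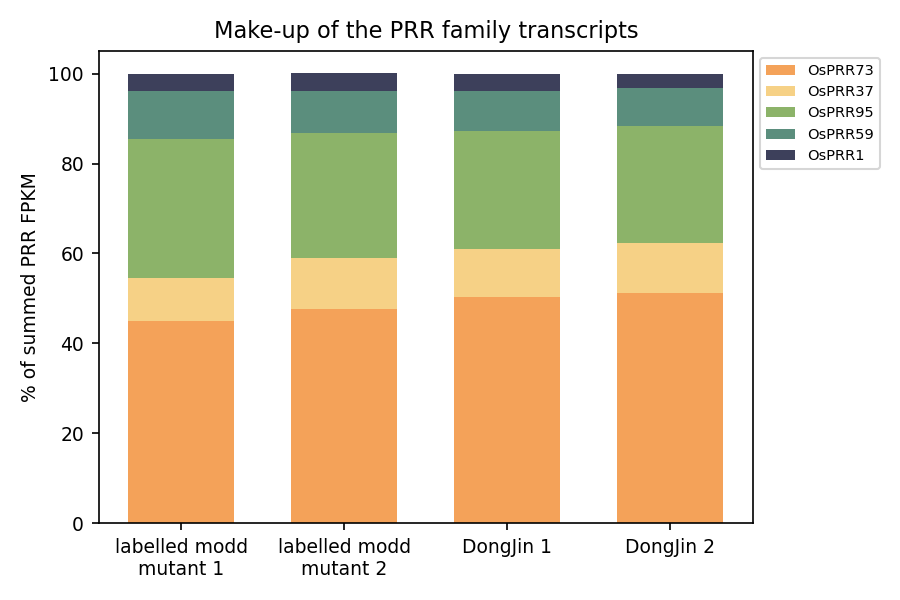
Share of each pseudo-response regulator gene in their summed FPKM, in percent, for each library. OsPRR73 and OsPRR95 together make up most of the sum in all 4 libraries, and OsPRR1 at most 3.9%.

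RSEM gives a gene's length as an average over its annotated transcripts, weighted by their estimated abundance, so the deposited length moves when the estimated mix of transcripts does. OsGI, with 7 annotated transcripts, had lengths of 4510 and 4550 bases in the modd-labelled libraries and 4501 and 4527 bases in DongJin. OsPRR73, with 6, had 3877 and 3870 bases in the modd-labelled libraries and 3894 and 3855 bases in DongJin. OsPRR37, with 4, had 3228 and 3222 bases in the modd-labelled libraries and 3238 and 3244 bases in DongJin. OsPRR59, with 5, had 2375 and 2376 bases in the modd-labelled libraries and 2381 and 2368 bases in DongJin. OsLHY, with 4, stayed between 2891 and 2899 bases, and OsPRR95, with 2, at 2417 to 2418 bases. OsELF3-2, with 2, had 2764 and 2713 bases in the modd-labelled libraries and 2682 and 2718 bases in DongJin. The genotypes overlapped for OsGI, OsPRR73, OsPRR59, OsLHY and OsELF3-2, and both modd-labelled values were below both DongJin values for OsPRR37, with no test of the lengths. OsPRR1, OsLUX and OsELF3-1 had a single annotated transcript.

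Of 12 genes of light input and clock protein turnover, all were tested and none was called in either direction, against 0.837% of all tested genes. At an unadjusted edgeR p under 0.05 stood 3 of the 12, against 16.8% of all tested genes. Their median log2 fold change was -0.12, against 0.00 over all tested genes. The phytochrome gene OsPHYA (LOC_Os03g51030), coding for the photoreceptor of far-red light, was at 21.88 and 24.64 FPKM in the modd-labelled libraries and at 29.07 and 27.36 FPKM in DongJin (log2 fold change -0.32 ± 0.108, SE, with an edgeR adjusted p of 0.182). OsPHYB (LOC_Os03g19590), coding for the main red light receptor, was at 57.14 and 54.53 FPKM in the modd-labelled libraries and at 48.65 and 32.44 FPKM in DongJin (log2 fold change 0.42 ± 0.156, SE, with an edgeR adjusted p of 0.222). DongJin replicate 2 stood low for OsPHYB, as it did for OsPRR1. LOC_Os02g41550, whose name is not paired with it in the sources used here, was at 35.17 and 35.72 FPKM in the modd-labelled libraries and at 40.65 and 47.79 FPKM in DongJin (log2 fold change -0.35, edgeR adjusted p = 0.19).

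Of 7 genes of photoperiod output, through which the clock acts on flowering, 2 were tested and none was called, against 0.837% of all tested genes. OsMADS50 (LOC_Os03g03070), a promoter of heading, was at 22.74 and 21.32 FPKM in the modd-labelled libraries and at 16.5 and 19.28 FPKM in DongJin (log2 fold change 0.26, edgeR adjusted p = 0.452). LOC_Os01g69850, with no name paired to it in the sources used here, was at 47.79 and 44.73 FPKM in the modd-labelled libraries and at 50.24 and 42.17 FPKM in DongJin (log2 fold change -0.04, edgeR adjusted p = 0.897).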

How the data were processed

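One gene table per library was used. Per the file headers, a row holds a gene's length, its expected count and its FPKM. The authors made the expected counts as estimates of reads per gene, unscaled. The authors' FPKM scales these by transcript length and by library. Gene lengths were used as deposited. Per the submitters' processing notes, RSEM, Bowtie and BWA were used, with no version or role stated. The build and annotation were not given in the sources used here. Genes missing from a table were counted as 0.

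Expected counts were rounded and fitted with edgeR 4.0.16 in R 4.3.3 (TMM, filterByExpr with a minimum count of 10 and total of 15, robust quasi-likelihood test, no covariate, Benjamini-Hochberg over 19365 genes). Standard errors are the log2 fold change divided by the square root of F, and intervals use the fit's degrees of freedom. DESeq2 1.42.0 and limma 3.58.1 on log2(FPKM + 1) and log2(FPKM + 0.1) were alternatives, with other factors and filters, a replicate block and each library left out. The scripts were tested on simulated data, with 2-fold and 4-fold changes set in 200 of 19365 genes. There edgeR recovered 78% of the 2-fold and 96% of the 4-fold changes, with 6.45% of its calls false. DESeq2 recovered 57% and 81%, with 1.43% false. Smaller changes, such as those estimated for the clock genes, were not simulated. Libraries of a group differed beyond sampling noise (chi-square per degree of freedom 2.54 in the modd-labelled libraries and 4.5 in DongJin).

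The members and lists were chosen with earlier results of these data known. All members were named, and of each other list the 3 with the smallest adjusted p (2 where only 2 were tested). The reference gene table (ASM3414082v1) matched 0 identifiers; it held 25 of the 41 symbols used, 8 of them for the 10 members, all 25 on the chromosome of the identifier. Names of OsPRR59 and OsELF3-2 come from the member list alone.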

Additional observations from a re-analysis of the deposited data

How the results depend on the processing

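No clock gene was called in 12 of the 13 alternatives, and 1 (OsELF3-2) without DongJin replicate 1. Of 117 log2 fold changes under alternatives, 114 kept their sign and their side of the threshold. The 12 and the 114 both include the limma fits, which called 0 genes in all. For the members those fits bear on the sign alone. OsLHY changed sign without modd-labelled replicate 2 (0.01) and without DongJin replicate 2 (0.02), and with single libraries left out it ran from -0.13 to 0.02. The count of all genes called, 162, was 102 with upper-quartile factors, 339 with DESeq2, 764 with all genes kept, and 0 in both limma fits on log2 FPKM (pseudocounts of 1 and 0.1, where 3164 and 3120 had an unadjusted p under 0.05). With single libraries left out it ran from 144 (without modd-labelled replicate 1) to 2483 (without DongJin replicate 1). In these fits the lone library of a genotype is assumed to vary like the other group. The labels do not say whether the replicate numbers pair the libraries. Same-numbered libraries' deviations correlated at 0.0126 over genes, and with the replicate block 870 genes were called and 0 clock genes. With single libraries left out, 3 of the ratio differences changed sign: OsLHY over OsPRR1 ran from -0.36 to 0.01, OsLHY over OsLUX from -0.50 to 1.04 and OsPRR95 over OsPRR1 from -0.11 to 0.19. Depth left OsLUX untested, and the shares of counting error and library spread in the other intervals were not separated.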
